A study of Danio rerio with 12 samples.

Results

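The question addressed here was how a heat-shock transgene line changed the response of the wild-type zebrafish heart to amputation of the ventricular apex. For each gene, the change from uninjured to injured hearts was measured in non-transgenic wild-type fish (WT7 against WT0) and in wild-type carriers of the transgene Tg(hsp70l:nkx2.5-EGFP) (TG7 against TG0), and the WT response was subtracted from the TG response. This double difference rests on 8 of the 12 libraries of the study, the other 4 being nkx2.5-/- hearts (MT0 and MT7). Those 4 entered the filter on low counts, the scaling of the libraries and the estimate of the spread, but not the difference itself. All genes were considered, of which 19014 of the 38049 listed had enough counts to be tested.

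WT0 and TG0 were uninjured adult hearts, and WT7 and TG7 were collected 7 days after resection of the apex. Each library was made from a pool of 6 ventricular apices, and each group had 2 biological replicates, so fish-to-fish spread within a pool is not seen. All fish were exposed to heat shock at 37 °C as embryos at 21 somites, the non-transgenic siblings included, so embryonic heat is common to both lines, and the labels tell them apart by the transgene. The hsp70l promoter is driven by heat and other stress in most cells rather than in the heart alone, and the authors describe transient transgene activity after amputation. The nkx2.5-/- fish carry the same transgene, which rescued them as embryos.

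The zebrafish ventricle closes an amputation wound with a clot and a transient fibrin and collagen deposit, then replaces the lost muscle by division of existing cardiomyocytes. In the first days, injured hearts recruit macrophages, activate the epicardium, deposit matrix, lower contractile and mitochondrial transcripts and raise cell cycle transcripts. Nkx2.5 is a homeodomain transcription factor of the cardiac lineage that sets chamber identity in the embryo. Heat shock proteins are chaperones that fold or refold other proteins, and ribosome biogenesis factors assemble ribosomes in the nucleolus. Autophagy delivers organelles and proteins to the lysosome.

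Total counts ranged from 14234818 in WT0 replicate 2 to 24544150 in TG7 replicate 2 and p-values below measure the spread between pools. In CPM (counts scaled to a common library size with TMM factors), nkx2.5 was measured at 269.6 and 271 in the WT0 libraries, 219.7 and 184 in WT7, 267 and 271 in TG0 and 166 and 186 in TG7. These counts do not check the labels, because reads of the transgene can be assigned to the same gene name. Between the replicates of a group, 424 of 9081 well-expressed genes were more than 2-fold apart in WT0, against 53 in WT7, 91 in TG0 and 52 in TG7. The 5 cardiomyocyte markers found were abundant throughout and summed to between 63915 and 109450 CPM over the 8 libraries. Skeletal muscle markers summed to 46.1 CPM in TG7 replicate 1 and to less than 2 CPM in each of the other 7 libraries. In these bulk samples, fewer cells of a type and less RNA per cell cannot be told apart.

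The response to amputation differed between the lines in 693 genes, 3.64% of those tested (edgeR's quasi-likelihood test, absolute log2 difference above 0.5 and Benjamini-Hochberg FDR below 0.05). The TG response was higher in 311 genes and lower in 382. The median absolute log2 difference among the called genes was 1.42, and each called gene had the same sign of difference in all 16 ways of taking 1 library from each group, which was true of 41.2% of all genes tested. The count depended on single libraries: it was 181 without WT0 replicate 1 and 2684 without WT0 replicate 2, 89 and 166 without TG0 replicate 1 and 2, 44 and 61 without WT7 replicate 1 and 2, and 31 and 58 without TG7 replicate 1 and 2. The sign of the difference held in 692 of the 693 genes without WT7 replicate 1 and in all 693 in each of the other 7 cases.

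Taken separately, 4596 genes (24.2%) changed with injury in WT and 1782 (9.37%) in TG by the same test, of which 13.2% of all genes rose and 11% fell in WT and 6.69% rose and 2.68% fell in TG, which does not by itself show a smaller response in TG. The WT count was 1951 without WT0 replicate 1 and 1822 and 1423 without WT7 replicate 1 and 2, and the TG count was 502 and 480 without TG0 replicate 1 and 2, 1064 and 1031 without WT7 replicate 1 and 2 and 405 and 587 without TG7 replicate 1 and 2. The double difference names the genes for which that contrast was tested. Of the 311 genes with a higher TG response, 217 fell in WT and were not called in TG, 61 rose in TG and were not called in WT, and 16 fell in WT and rose in TG. Of the 382 with a lower TG response, 258 rose in WT and were not called in TG, 53 fell in TG and were not called in WT, and 32 rose in WT and fell in TG. Genes called in the same direction in both lines were few, namely 7 that rose in both with a larger rise in TG, 12 that rose in both with a larger rise in WT and 1 that fell in both. For 9 of the 311 and 27 of the 382, neither response was called on its own. Responses of opposite sign were found in 538 of the 693 genes and in 38.0% of all genes tested. Choosing genes by the difference of the responses favours opposite signs, so these values are a description only.

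**Figure D1:**
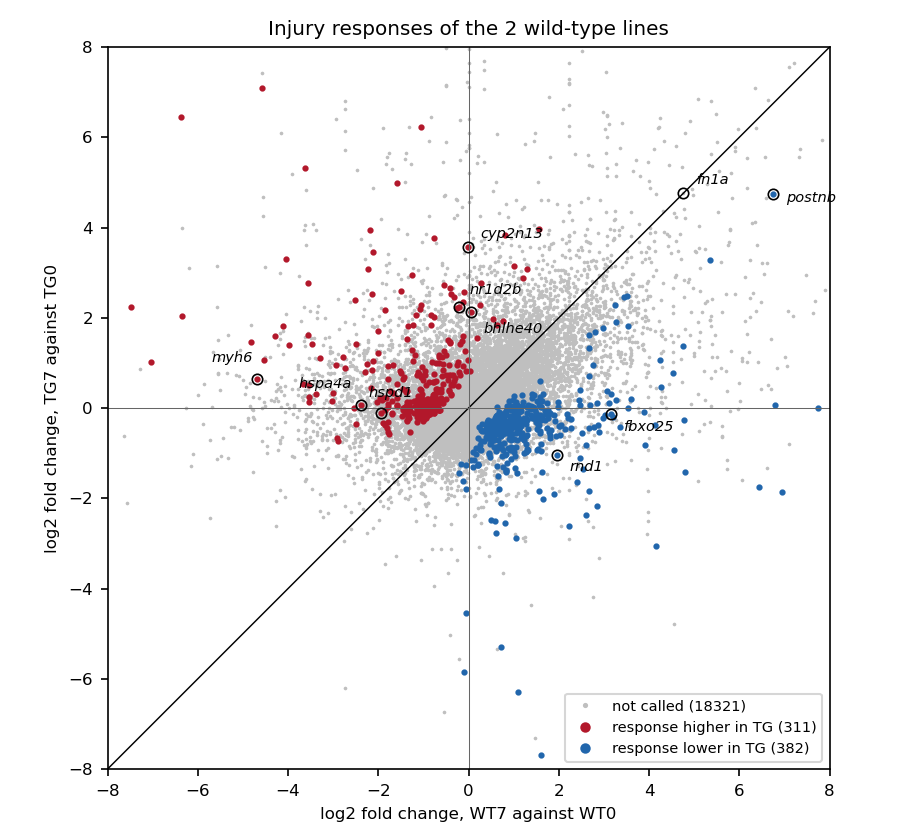
Log2 fold change with injury of each tested gene in non-transgenic wild-type hearts (horizontal axis) and in transgenic wild-type hearts (vertical axis); the diagonal marks equal responses, red and blue points are the 311 and 382 genes whose responses differed, open circles mark named genes, and 40 genes lie outside the axes. Most called genes lie close to the horizontal axis, with a change in WT and little change in TG, while fn1a lies on the diagonal.

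Read the other way, the same double difference is the change of the TG to WT contrast between uninjured and injured hearts. Between the uninjured lines, 4270 genes differed (22.5%), and between the injured lines 216 genes (1.14%). Higher levels in TG made up 11.1% and lower levels 11.3% before injury, against 0.847% and 0.289% after it. The count before injury was 1669 without WT0 replicate 1 and 1408 and 1945 without TG0 replicate 1 and 2, and that after injury was 22 and 3 without WT7 replicate 1 and 2 and 46 and 12 without TG7 replicate 1 and 2. Of the 311 genes with a higher TG response, 286 were lower in TG0 than in WT0 and 18 were higher in TG7 than in WT7. Of the 382 with a lower TG response, 350 were higher in TG0 than in WT0 and 15 were lower in TG7 than in WT7. These shares use the same libraries as the double difference and are given as a description.

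For each gene the group mean farthest from the mean of the other 3 groups was recorded. It was WT0 for 481 of the 693 called genes (69.4%), TG0 for 154 (22.2%), WT7 for 34 and TG7 for 24. Over all genes tested the shares were 45.7% for WT0, 23.2% for TG0, 13.1% for WT7 and the remainder for TG7. In 338 of the 481 genes WT0 stood clearly apart, meaning that the distance to WT0 was more than 2-fold the range of the other 3 group means on the log2 scale. Of these 338, all 4 nkx2.5-/- libraries were nearer to the other 3 groups than to WT0 in 136 genes, and none was in 20. In the rest, which outnumber either class, the 4 libraries were split. The 4 include the injured MT7 libraries, so these counts do not place the uninjured MT0 hearts. For the counts of 338, 136 and 20 no share over all genes tested was taken, so they are a description only. The median absolute log2 difference between group means over all genes was 0.23 between WT7 and TG7, 0.48 between WT0 and TG0, 0.49 between WT0 and WT7 and 0.37 between TG0 and TG7.

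**Figure D2:**
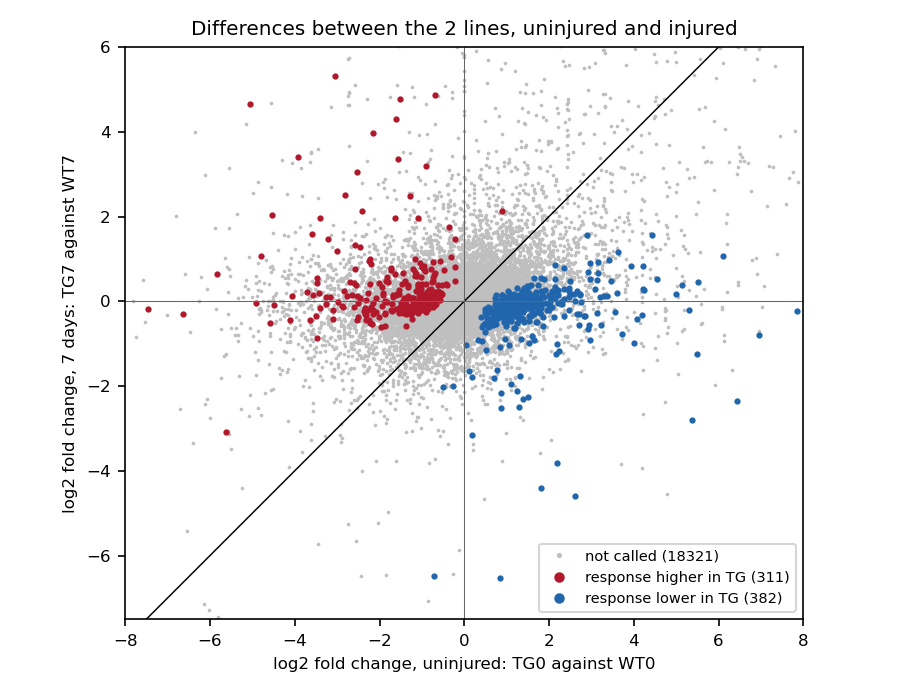
Log2 fold change of TG against WT in uninjured hearts (horizontal axis) and in injured hearts (vertical axis) for each tested gene; the diagonal marks equal differences, colours are as in the plot of the responses, and 114 genes lie outside the axes. The called genes spread along the horizontal axis and stay near 0 on the vertical axis, with 286 of the 311 red genes called lower and 350 of the 382 blue genes called higher in TG0 than in WT0.

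Chaperones had a higher response in TG: their levels were high in WT0 and fell with injury, while those in TG0 were already low. Of 54 tested heat shock and chaperonin genes, 10 had a higher TG response and 0 a lower one (1.64% and 2.01% of all genes tested), and the median log2 difference was 0.64 against 0.01 over all genes. In WT 22 members fell with injury and 1 rose, while in TG 3 fell and 5 rose. hspd1, the mitochondrial chaperonin Hsp60, was measured at 507 and 463 CPM in WT0, 134 and 119.5 in WT7, 98.0 and 105 in TG0 and 92.8 and 94.1 in TG7. Both WT0 libraries lay far above the other 6, which spanned a narrow range, and the log2 difference of the responses was 1.82 (SE 0.18, edgeR FDR = 0.00199). The nkx2.5-/- libraries were in between before injury, at 217 and 183 CPM in MT0, and at 91.6 and 86.5 in MT7.

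hspa4a, a nucleotide exchange factor of the Hsp70 machine, was measured at 369 and 233 CPM in WT0, 56.5 and 58.4 in WT7, 57.1 and 68.3 in TG0 and 64.2 and 67.2 in TG7. Again WT0 alone was high, with MT0 at 250.3 and 223 CPM near WT0, and the log2 difference was 2.46 (SE 0.27, edgeR FDR = 0.00383). hsp90aa1.1, the stress-inducible and muscle-enriched Hsp90, was measured at 1070.0 and 403 CPM in WT0, 112 and 101 in WT7, 67.9 and 44.2 in TG0 and 118 and 128 in TG7. The WT0 replicates were more than 2-fold apart, the TG0 libraries were the lowest of the 8, and the log2 difference was 3.93 (SE 0.58, edgeR FDR = 0.0114). That call was lost without any of the TG0, WT7 or TG7 libraries, at values from 3.06 to 4.46 over all 8 libraries left out in turn. hsp70l, the gene whose promoter drives the transgene, was at 25.6 CPM in WT0 replicate 1 and at 4.18 in WT0 replicate 2, and between 3.82 and 7.53 CPM in the other 6 libraries. Its log2 difference of 2.07 (SE 0.84, edgeR FDR = 0.179) was not called. It was 0.23 without WT0 replicate 1, and 2.84 without WT0 replicate 2 with an edgeR FDR of 0.00115, so that the choice between these replicates decided it. The MT0 libraries were at 19.8 and 20.7 CPM. The list's count of calls was 4 without WT0 replicate 1, 25 without WT0 replicate 2 and 2 or 3 without any of the other 6 libraries, while its median difference stayed between 0.39 and 0.80. timm10, a small chaperone that escorts proteins into mitochondria and is not in the list, followed the same course, with 51.6 and 50.1 CPM in WT0, 18.8 and 17.8 in WT7, 22.4 and 21.6 in TG0 and 20.5 and 18.3 in TG7. Only WT0 stood apart, and the log2 difference was 1.29 (SE 0.17, edgeR FDR = 0.0084), a call lost without WT7 replicate 1, WT7 replicate 2 or TG7 replicate 1.

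**Figure D3:**
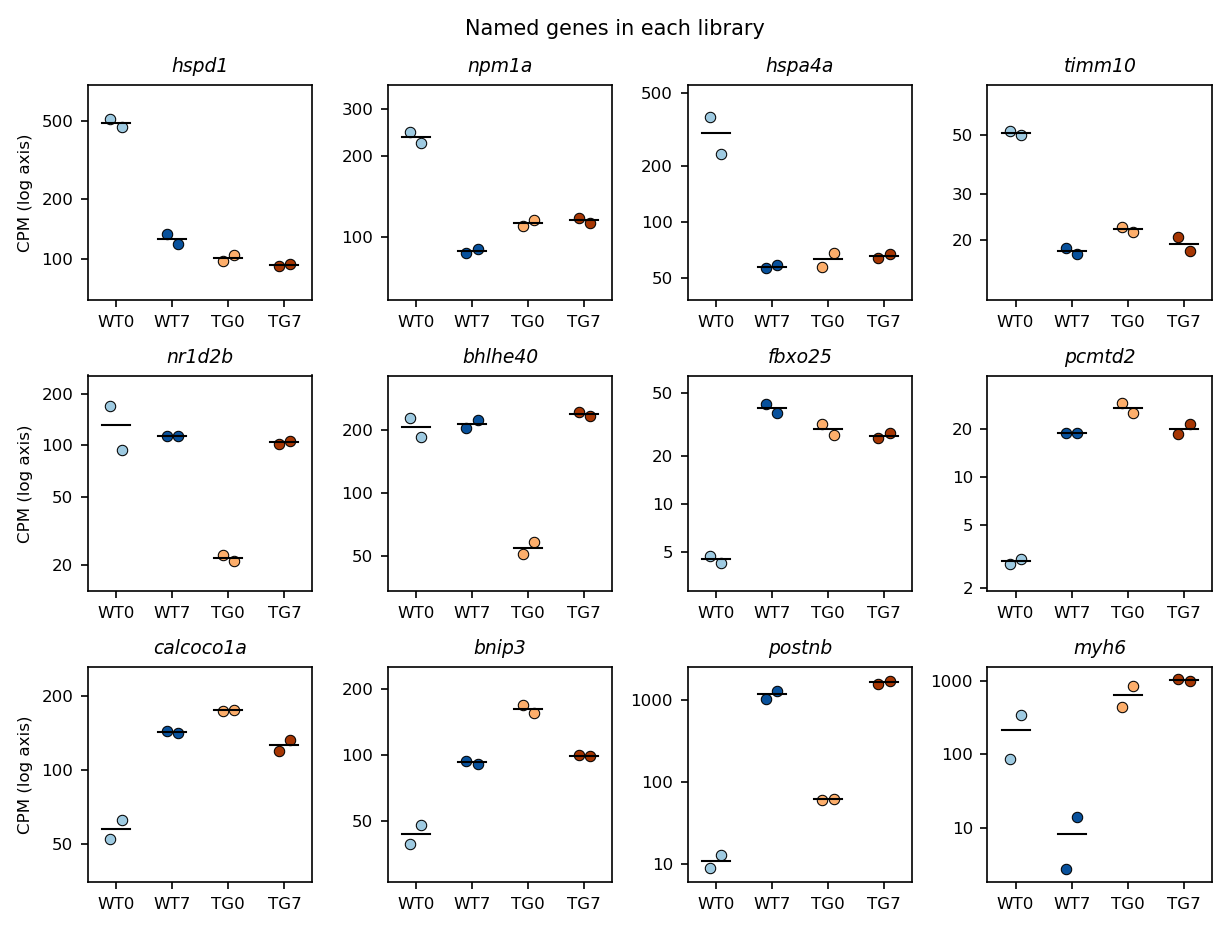
CPM of 12 named genes in each of the 8 libraries (log axes with a separate range for each gene); points are single libraries and bars are group means of 2. WT0 alone is high in hspd1, npm1a, hspa4a and timm10 and alone low in fbxo25, pcmtd2, calcoco1a and bnip3, and TG0 alone is low in nr1d2b and bhlhe40. In myh6 WT7 is far the lowest, and WT0 is next lowest, below TG0 and TG7.

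Ribosome biogenesis genes showed the same pattern, with 20.9% of members called against 18.5% in the heat shock and chaperonin list. Of 110 tested members, 23 had a higher TG response and 0 a lower one, with a median log2 difference of 0.45, and all 23 had WT0 as the group farthest from the others. In WT 58 members fell and 2 rose with injury, against 1 and 3 in TG, and 42 members were lower in TG0 than in WT0. npm1a, which encodes the nucleolar chaperone nucleophosmin, was measured at 246 and 223 CPM in WT0, 87.0 and 89.8 in WT7, 110.2 and 115 in TG0 and 118 and 112 in TG7. Both WT0 libraries were about 2-fold above the other 6, and the log2 difference was 1.44 (SE 0.15, edgeR FDR = 0.00335). fbl encodes fibrillarin, the methyltransferase that modifies ribosomal RNA, and was at 68.3 and 68.8 CPM in WT0 and between 31.3 and 38.7 CPM in the other 6 libraries. Its log2 difference was 1.02 (SE 0.15, edgeR FDR = 0.0108). heatr1 is a factor for transcription and processing of pre-ribosomal RNA. It was at 34.04 and 38.62 CPM in WT0 and between 13.8 and 20.7 CPM in the other 6 libraries. The log2 difference of heatr1 was 1.42 (SE 0.21, edgeR FDR = 0.0119). The MT0 libraries were nearer to WT0 than to TG0 in npm1a (208 and 189 CPM) and fbl (60.6 and 62.7). In heatr1 they lay between WT0 and TG0, at 25.04 and 21.95 CPM. Mean log2 CPM over the list was 4.51 and 4.40 in MT0, 4.73 in both WT0 libraries and 4.26 and 4.38 in TG0. The list kept 6 calls without WT0 replicate 1, 2 and 8 without TG0 replicate 1 and 2, 1 and 2 without WT7 replicate 1 and 2 and 1 without either TG7 replicate, rose to 28 without WT0 replicate 2, and kept a median between 0.36 and 0.49. Of 81 cytosolic ribosomal proteins, by contrast, only rpl22l1 was called (log2 difference 0.91, SE 0.19, edgeR FDR = 0.034), and the median was 0.22. That call was lost with a replicate block (log2 difference 0.91) and without any library other than WT0 replicate 2, at values from 0.82 to 0.99 over all 8. Of 69 mitochondrial ribosomal proteins none was called by edgeR, DESeq2 or limma-voom and 1 was at an unadjusted p below 0.05, while 40 fell in WT and 7 in TG.

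Genes for amino acid supply and the integrated stress response, the program by which cells raise amino acid synthesis and tRNA charging under stress, had 7 of 45 members with a higher TG response and 0 with a lower one. Their median log2 difference was 0.73, and 22 members were lower in TG0 than in WT0 while 0 were higher. mthfd2, a mitochondrial enzyme of one-carbon folate metabolism, was at 92.9 and 67.7 CPM in WT0, 36.5 and 38.3 in WT7, 34.5 and 26.7 in TG0 and 46.8 and 56.7 in TG7. It fell in WT and its log2 difference was 1.86 (SE 0.31, edgeR FDR = 0.0175). mars, which charges tRNA with methionine, was at 35.6 and 32.7 CPM in WT0, 16.3 in both WT7 libraries, 24.2 and 24.5 in TG0 and 23.9 and 30.4 in TG7. Here the WT7 libraries were the lowest of the 8, and the log2 difference was 1.23 (SE 0.19, edgeR FDR = 0.0124). sars, which charges tRNA with serine, had a log2 difference of 0.95 (SE 0.19, edgeR FDR = 0.0324). The 7 calls became 9 without WT0 replicate 2, 2 without WT0 replicate 1 or TG0 replicate 2, 1 without TG7 replicate 1 and 0 without TG0 replicate 1, either WT7 replicate or TG7 replicate 2.

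Of 58 genes for protein folding in the endoplasmic reticulum, 4 had a higher TG response (xbp1, hyou1, hspa5 and hsp90b1) and plod2, a collagen lysyl hydroxylase, a lower one. TG0 was the group farthest from the others in 3 of the 5 and WT0 in 2. hspa5 and hsp90b1 lie outside the rule for named genes and were named after their values were seen. xbp1, a transcription factor of the unfolded protein response, was at 174 and 158 CPM in WT0, 136 and 153 in WT7, 83.0 and 75.6 in TG0 and 139 and 123 in TG7. Only TG0 was low, and the log2 difference was 0.92 (SE 0.17, edgeR FDR = 0.0252). hspa5, the main Hsp70 of the compartment, was at 254 and 180.5 CPM in WT0, 167 and 203 in WT7, 69.0 and 81.5 in TG0 and 148 and 159.5 in TG7. It rose in TG with a log2 difference of 1.26 (SE 0.24, edgeR FDR = 0.0297). hyou1, an Hsp70-like chaperone of the same compartment, had a log2 difference of 1.06 (SE 0.19, edgeR FDR = 0.0264). All 5 calls were lost without any of the libraries other than WT0 replicate 2, without which 11 members were called.

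Autophagy genes moved the opposite way. Of 54 tested, 11 had a lower TG response and 1, vmp1, named after its value was seen, a higher one, with a median log2 difference of -0.48. In WT 20 members rose with injury and 4 fell, against 1 and 3 in TG, and 23 members were higher in TG0 than in WT0. calcoco1a, which encodes a receptor for selective autophagy, was measured at 52.2 and 62.6 CPM in WT0, 144 and 142 in WT7, 173 and 176 in TG0 and 119 and 133 in TG7. The WT0 libraries were the lowest and the TG0 libraries the highest of the 8, and the log2 difference was -1.79 (SE 0.17, edgeR FDR = 0.00199). bnip3, a mitophagy receptor of the outer mitochondrial membrane, was at 39.5 and 48.0 CPM in WT0, 94.0 and 90.8 in WT7, 168 and 155 in TG0 and 100.2 and 98.4 in TG7. It rose in WT and fell in TG, with TG7 close to WT7, and the log2 difference was -1.78 (SE 0.18, edgeR FDR = 0.0026). map1lc3b, the LC3 protein that is coupled to the autophagosome membrane, was at 70.0 and 79.7 CPM in WT0 and between 140.5 and 167 CPM in the other 6 libraries, with a log2 difference of -1.20 (SE 0.17, edgeR FDR = 0.00975). The MT0 libraries were nearer to WT0 than to TG0 in calcoco1a (68.2 and 63.6 CPM), bnip3 (39.0 and 37.6) and map1lc3b (93.2 and 86.2). The list's mean log2 CPM was 4.38 and 4.27 in MT0, 4.47 and 4.33 in WT0 and 4.68 and 4.65 in TG0. The list had 23 calls without WT0 replicate 2, 6 without WT0 replicate 1, 3 and 7 without TG0 replicate 1 and 2, 2 and 3 without WT7 replicate 1 and 2 and 2 without either TG7 replicate, and its median lay between -0.57 and -0.37. Of 42 constitutive proteasome genes, edgeR called none, limma-voom 0 and DESeq2 1, and the only unadjusted p below 0.05 belonged to psmd5 (log2 difference -0.74, SE 0.18, edgeR FDR = 0.0552).

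**Figure D4:**
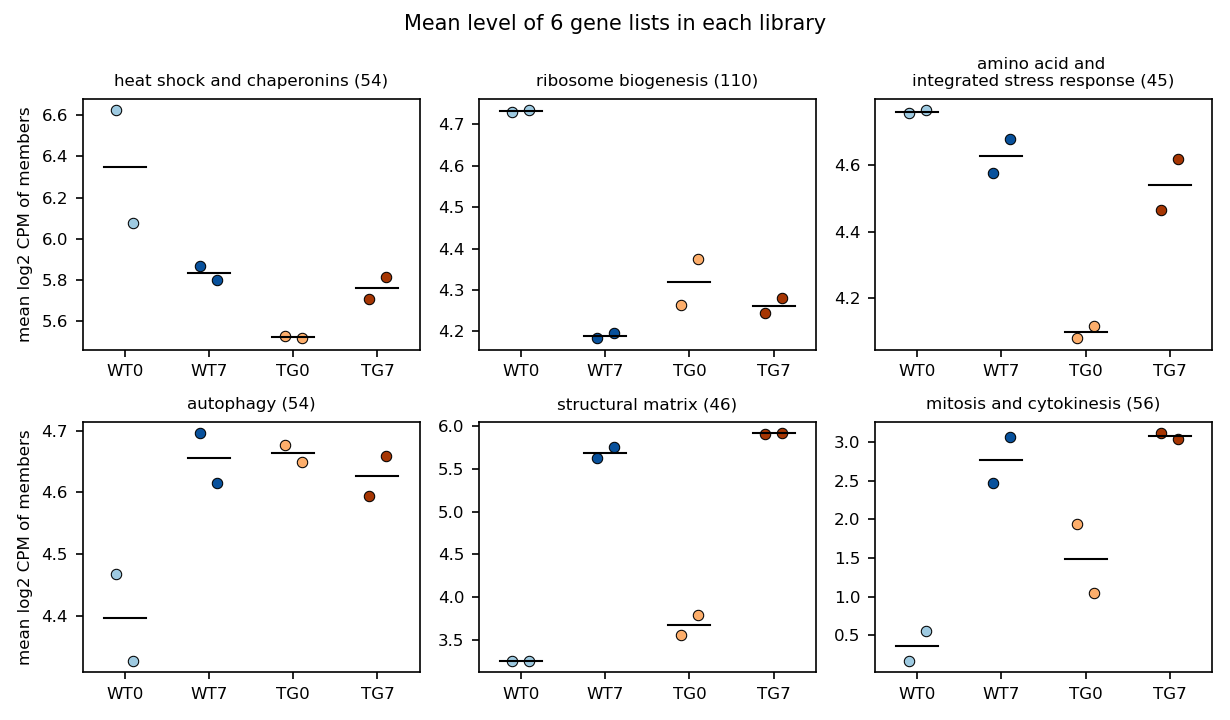
Mean log2 CPM over the tested members of 6 gene lists (number of members in brackets) in each of the 8 libraries; points are libraries, bars are group means of 2, and each panel has its own axis that does not start at 0. WT0 is highest in the heat shock and ribosome biogenesis lists and lowest in the autophagy list, TG0 is lowest in the amino acid list, and the matrix and mitosis lists are lowest in WT0 and next lowest in TG0.

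The gene with the smallest p of all named genes, and several others named by their p, had lower TG responses with low levels in WT0 alone among the 8 compared libraries. fbxo25, an F-box protein that recruits substrates to a ubiquitin ligase, was measured at 4.75 and 4.25 CPM in WT0, 42.9 and 37.3 in WT7, 31.9 and 27.3 in TG0 and 26.0 and 28.0 in TG7. Its WT0 libraries stood far below the other 6, it rose in WT by a log2 fold change of 3.15 with a TG value of -0.13, and the log2 difference was -3.28 (SE 0.20, edgeR FDR = 0.000221). The nkx2.5-/- libraries were at 8.03 and 8.30 CPM in MT0, near WT0, and at 20.9 and 21.6 in MT7. pcmtd2, an isoaspartyl methyltransferase-domain protein, was at 2.85 and 3.06 CPM in WT0, 18.8 and 18.9 in WT7, 29.1 and 25.3 in TG0 and 18.6 and 21.7 in TG7, and the log2 difference was -3.11 (SE 0.30, edgeR FDR = 0.00199). Its relative pcmtd1 has a pair of entries, pcmtd1 and pcmtd1-2, with log2 differences of -2.61 (SE 0.24) and -2.31 (SE 0.22), both at an edgeR FDR of 0.00199, although reads could be split uncertainly between such copies. The E3 ubiquitin ligase genes rnf11a (log2 difference -1.57, SE 0.15, edgeR FDR = 0.00199) and mkrn1 (-1.72, SE 0.19, edgeR FDR = 0.00344) were likewise low in WT0 alone among the 8. The MT0 libraries were near WT0 in pcmtd2, at 3.05 and 5.12 CPM, and in mkrn1, at 30.3 and 23.7 CPM against 27.5 and 25.3 in WT0. In rnf11a MT0 was at 34.5 and 31.9 CPM against 20.2 and 20.1 in WT0.

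Other genes named by the smallest p-values had mixed roles. rnd1, an atypical small GTPase that loosens actin fibres, was at 1.76 and 2.61 CPM in WT0, 8.98 and 7.996 in WT7, 23.8 and 24.6 in TG0 and 11.2 and 12.5 in TG7. It rose in WT and fell in TG, and the log2 difference was -2.99 (SE 0.26, edgeR FDR = 0.00176). znf326, a zinc finger protein of transcription-coupled splicing, also rose in WT, from 31.5 and 29.6 to 53.2 and 57.5 CPM, and fell in TG, from 64.6 and 62.3 to 26.6 and 27.9 CPM. Its log2 difference was -2.08 (SE 0.18, edgeR FDR = 0.00176), and it was 1 of the genes lower in TG7 than in WT7. cyp2n13, a cytochrome P450, was at 2.64 and 1.64 CPM in WT0, 2.57 and 1.68 in WT7, 0.671 and 0.704 in TG0 and 8.60 and 7.98 in TG7. Only TG7 was high, and the log2 difference was 3.60 (SE 0.46, edgeR FDR = 0.00714), a call lost without TG7 replicate 1. The phosphate transporter slc20a1b (log2 difference 1.87, SE 0.23, edgeR FDR = 0.00596) and the transcription factor rfx2 (1.53, SE 0.21, edgeR FDR = 0.00921) were lowest in TG0, at 21.6 and 19.8 CPM and at 15.001 and 14.3 CPM. klf7b, a Kruppel-like factor, was at 16.6 and 16.03 CPM in WT0, 6.99 and 7.42 in WT7, 3.23 and 3.27 in TG0 and 8.43 and 6.42 in TG7, and its log2 difference was 2.36 (SE 0.33, edgeR FDR = 0.00975). It fell in WT and rose in TG, and the lines were closer to each other after injury than before. Without WT7 replicate 1 the calls of slc20a1b (log2 difference 1.90), rfx2 (1.57) and klf7b (2.34) were lost, that of rfx2 also without WT7 replicate 2 or either TG7 replicate, and that of klf7b also without TG0 replicate 1, WT7 replicate 2 or TG7 replicate 1.

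Of the 54 named genes that were called, 14 kept their call in all 14 alternative settings, among them hspd1, npm1a, hmbsb, hspa4a and the 10 with the smallest p-values among the lower responses. The other 40 lost it in at least 1, with directions unchanged throughout. Leaving out WT0 replicate 1 lost 24 of the 54 calls, TG0 replicate 1 and 2 lost 34 and 26, WT7 replicate 1 and 2 lost 38 and 35, TG7 replicate 1 and 2 lost 38 and 34, and leaving out WT0 replicate 2 lost 0.

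Clock genes were set apart by TG0. The vertebrate clock is a loop in which Clock and Bmal proteins activate their own repressors over a day, and those repressors include Period, Rev-erb and Dec proteins. Of 41 clock genes, 5 had a higher TG response and 2 a lower one, all 7 with TG0 as the group farthest from the others, and the median log2 difference was 0.09. nr1d2b, a Rev-erb repressor, was measured at 170.0 and 93.6 CPM in WT0, 113 and 114 in WT7, 22.7 and 21.02 in TG0 and 102 and 106 in TG7. TG0 alone was low, the gene was not called in WT, and the log2 difference was 2.47 (SE 0.31, edgeR FDR = 0.00714), not called without WT7 replicate 1 (2.47) or TG7 replicate 1 (2.49). bhlhe40, a Dec repressor, was at 227 and 185 CPM in WT0, 204 and 222 in WT7, 50.9 and 58.3 in TG0 and 242 and 233 in TG7, with a log2 difference of 2.07 (SE 0.30, edgeR FDR = 0.0108). Its relative bhlhe41 was at 13.8 and 10.6 CPM in WT0, 8.83 and 10.5 in WT7, 1.28 and 1.96 in TG0 and 9.45 and 8.51 in TG7, with a log2 difference of 2.78 (SE 0.52, edgeR FDR = 0.0281). The uninjured nkx2.5-/- libraries were also low in nr1d2b, at 18.4 and 18.1 CPM, and in bhlhe40, at 69.2 and 43.6 CPM. In TG 7 clock genes rose and 10 fell, against 0 and 7 in WT. The hour at which hearts were collected is not given in the sources used here. The list had 24 calls without WT0 replicate 2, 4 without WT0 replicate 1, 2 without TG0 replicate 2, 1 without TG0 replicate 1, WT7 replicate 2 or TG7 replicate 2 and 0 without WT7 replicate 1 or TG7 replicate 1. Its median ranged from -0.13 to 0.44.

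Matrix genes rose with injury in both lines, from a higher uninjured level in TG for the type I collagen chains. Of 46 structural matrix genes, 31 rose in WT and 32 in TG, 6 had a lower TG response and 1 (thbs2b, named after its value was seen) a higher one, and the median log2 difference was -0.26. postnb, a periostin of injury-activated fibroblasts, was at 8.95 and 12.8 CPM in WT0, 1039 and 1306 in WT7, 61.0 and 61.6 in TG0 and 1565 and 1712 in TG7. It rose by a log2 fold change of 6.75 in WT and 4.74 in TG, from a higher uninjured level in TG to the highest levels in TG7, and the log2 difference was -2.01 (SE 0.34, edgeR FDR = 0.0185). col1a2, a chain of type I collagen, was at 112 and 113 CPM in WT0, 1236 and 1345 in WT7, 252 and 231 in TG0 and 1355 and 1332 in TG7. The injured libraries of both lines overlapped while TG0 was about 2-fold above WT0, and the log2 difference was -1.05 (SE 0.20, edgeR FDR = 0.0305). The other chains col1a1a (log2 difference -0.94, SE 0.20, edgeR FDR = 0.0383) and col1a1b (-0.996, SE 0.21, edgeR FDR = 0.0356), near-identical copies named after their values were seen, were likewise higher in TG0 than in WT0. The col1a2 call was lost without any library other than WT0 replicate 2. The small proteoglycan lum (log2 difference -2.07, SE 0.42, edgeR FDR = 0.0333) had the same order of groups, and its call was lost with limma-voom. fn1a, fibronectin, rose by log2 4.76 in WT and 4.77 in TG, and its log2 difference was 0.01 (SE 0.32, edgeR FDR = 0.995). Without WT0 replicate 2 the list had 11 calls, without TG0 replicate 1 it had 1, and without any of the other 6 libraries it had 0.

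Of 26 matrix proteases and inhibitors, 16 rose in WT and 11 in TG, and 2 had a lower TG response, of which mmp11b is described. mmp11b, a stromelysin, was higher in TG0 (8.17 and 12.7 CPM) than in the other 6 libraries (1.04 to 6.05 CPM), with a log2 difference of -2.23 (SE 0.40, edgeR FDR = 0.0242). The mmp11b call was lost with limma-voom. The count was 8 without WT0 replicate 2, 1 without WT0 replicate 1 or either TG0 replicate and 0 without any WT7 or TG7 library.

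Immune and cell cycle lists held no called member by edgeR. At an unadjusted edgeR p below 0.05 there were 7 macrophage and leukocyte genes, 4 cytokine and chemokine genes, 2 replication genes and 13 mitosis genes. Of all 19014 genes tested, 4342 were at such a p. Over all members of these lists DESeq2 called 5, 3, 1 and 3, and limma-voom called 0 in each. Of 34 interferon and antigen presentation genes 8 were at such a p, DESeq2 called 4 and limma-voom 0. Of 47 macrophage and leukocyte genes, 21 rose in WT and 22 in TG, with a median log2 difference of 0.20. Of 39 cytokine and chemokine genes 11 rose in WT and 9 in TG, and of 39 replication genes 13 and 10. Of 56 mitosis and cytokinesis genes, 49 rose in WT and 28 in TG, and the median log2 difference was -1.03, with a median of 2.74 for the WT response and 1.63 for the TG response. Their mean log2 CPM was 0.17 and 0.56 in WT0, 2.47 and 3.06 in WT7, 1.93 and 1.05 in TG0 and 3.11 and 3.04 in TG7. The TG0 replicates differed from each other by more than the injured groups did, and 20 members were higher in TG0 than in WT0. plk1, a mitotic kinase, was at 0.881 and 1.94 CPM in WT0, 6.94 and 13.0 in WT7, 3.35 and 2.26 in TG0 and 12.9 and 12.7 in TG7, and its log2 difference of -0.64 (SE 0.84, edgeR FDR = 0.694) was not called. Markers of macrophages summed to 62.0 and 73.4 CPM in TG0 and to between 92.8 and 307 CPM in the other 6 libraries, with none called. cdkn1a, an inhibitor of cyclin-dependent kinases, fell in TG from 37.3 and 39.4 to 16.2 and 18.4 CPM and was at 25.4 and 29.3 CPM in WT0 and 25.2 and 31.5 in WT7, and its log2 difference was -1.20 (SE 0.20, edgeR FDR = 0.0164).

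**Figure D5:**
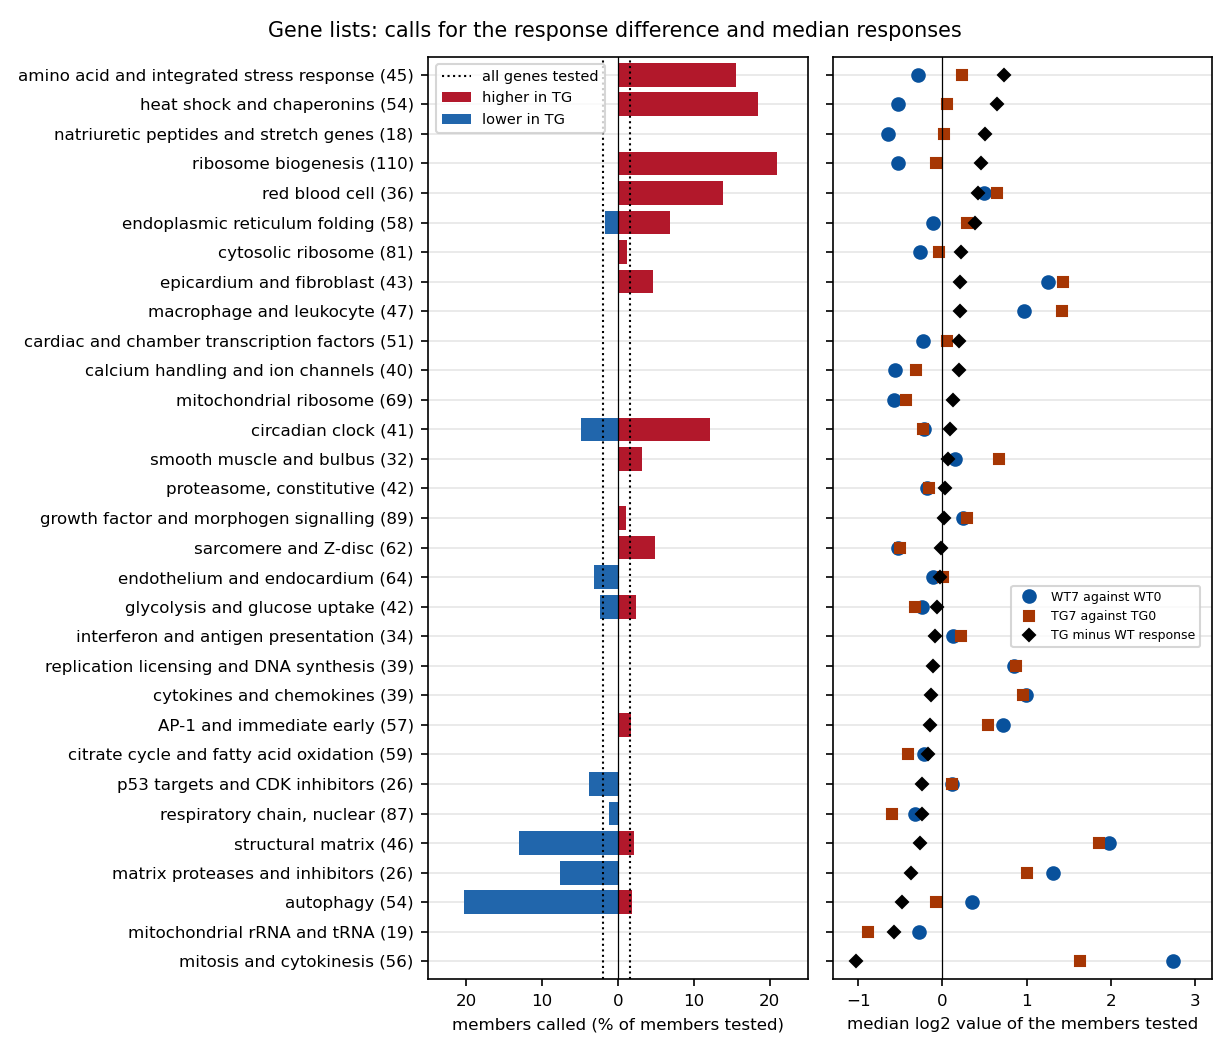
Left, share of the tested members of 31 gene lists (number tested in brackets) with a higher or a lower TG response, with dotted lines at the shares over all genes tested (1.64% and 2.01%); right, median log2 fold change with injury in WT and in TG and median log2 difference of the responses. Ribosome biogenesis, heat shock, amino acid, red blood cell and clock lists have the longest bars for higher calls and autophagy and structural matrix lists those for lower calls, while the mitosis list has the lowest median without a call; the liver list is described in the text.

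Contractile genes had like median changes in both lines. Of 62 sarcomere and Z-disc genes, 19 fell and 4 rose in WT and 7 fell and 3 rose in TG, with median log2 changes of -0.53 and -0.51, and 3 had a higher TG response. myh6, the atrial myosin heavy chain, was at 85.6 and 348 CPM in WT0, 2.72 and 14.05 in WT7, 438 and 864 in TG0 and 1045 and 998 in TG7. WT7 was far below the other 6 libraries, replicates differed by up to several fold, and the log2 difference was 5.33 (SE 1.13, edgeR FDR = 0.0382). It was the only atrial marker in the list of markers, and the part of atrial tissue in these levels was not tested. The count of sarcomere calls was 2 without WT0 replicate 1, 10 without WT0 replicate 2, 1 without TG0 replicate 2 and 0 without any of the other 5 libraries, and myh6 was lost without each TG0, WT7 or TG7 library, at values between 3.98 and 6.96 over all 8. fhl2b, a LIM-domain protein of the Z-disc, was at 86.9 and 52.8 CPM in WT0, 22.0 and 21.6 in WT7, 13.0 and 16.8 in TG0 and 31.4 and 26.3 in TG7, with a log2 difference of 2.63 (SE 0.38, edgeR FDR = 0.011). flncb, a filamin, had a log2 difference of 1.18 (SE 0.25, edgeR FDR = 0.0393). vmhc, the ventricular myosin heavy chain, rose in both lines, by log2 1.97 in WT and 1.21 in TG, and its log2 difference was -0.76 (SE 0.35, edgeR FDR = 0.222).

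No cardiac transcription factor was called by edgeR among 51 tested, and none of 40 calcium handling and ion channel genes. At an unadjusted edgeR p below 0.05 there were 11 and 12 of them, against 4342 of all 19014 genes tested. DESeq2 called 3 and 7 members, and limma-voom called 0 in both lists. mef2ca, a MADS-box factor of muscle, had the smallest p of the former (log2 difference 1.44, SE 0.38, edgeR FDR = 0.0662) and scn4ab, a sodium channel, of the latter (1.81, SE 0.47, edgeR FDR = 0.0641). The log2 difference of nkx2.5 was -0.20 (SE 0.28, edgeR FDR = 0.722). Of the 87 nuclear genes of the respiratory chain, cox4i2 alone was called (log2 difference -1.44, SE 0.28, edgeR FDR = 0.0309), and the medians were -0.32 in WT and -0.59 in TG. The cox4i2 call was lost without any library other than WT0 replicate 2, at values from -1.82 to -1.15 over all 8. Of 42 glycolysis genes 1 was called in each direction. hk2, a hexokinase, was at 11.9 and 8.05 CPM in WT0, 6.46 and 8.48 in WT7, 1.22 and 1.56 in TG0 and 11.7 and 6.18 in TG7, so that TG0 alone was low, and the log2 difference was 3.08 (SE 0.48, edgeR FDR = 0.0135). gpib, a glucose phosphate isomerase, was lowest in WT0 (93.6 and 153 CPM) and had a log2 difference of -1.92 (SE 0.44, edgeR FDR = 0.0434). The glycolysis list had 6 calls without WT0 replicate 2, 1 without WT0 replicate 1 or TG7 replicate 2 and 0 without any of the other 5 libraries. In the endothelial list, edn1, the vasoconstrictor endothelin, was at 1.29 and 2.68 CPM in WT0 and between 10.5 and 24.1 CPM in the other 6 libraries, with a log2 difference of -3.17 (SE 0.71, edgeR FDR = 0.0419). Without WT0 replicate 1, or without any of the TG0, WT7 and TG7 libraries, edn1 was not called, at values from -3.90 to -2.58 over all 8. The edn1 call was also lost with limma-voom, with the 8 compared libraries alone and with the replicate block, and that of gpib with limma-voom and with the block.

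Genes of the remaining lists were called singly or in pairs, and each of these calls was lost without any library other than WT0 replicate 2 unless stated. cdkn1a, above, kept its call also without WT7 replicate 1. In the epicardium and fibroblast list, of which 26 of 43 members rose in WT and 27 in TG, thy1, a surface protein of fibroblasts and T cells, was at 9.90 and 11.3 CPM in WT0, 9.17 and 10.3 in WT7, 3.05 and 3.32 in TG0 and 19.02 and 13.5 in TG7. TG0 was the lowest and TG7 the highest group, and the log2 difference was 2.47 (SE 0.57, edgeR FDR = 0.0468). cav1, the coat protein of caveolae, was the other call of that list (log2 difference 1.41, SE 0.33, edgeR FDR = 0.0494). myh11b, a smooth muscle myosin, was below 1 CPM in all WT and TG0 libraries and at 3.13 and 2.41 CPM in TG7, with a log2 difference of 4.09 (SE 0.85, edgeR FDR = 0.0356). ece1, the enzyme that activates endothelin, had a log2 difference of -1.02 (SE 0.23, edgeR FDR = 0.0415). klf2b, a flow-responsive transcription factor counted with the immediate early genes, fell in WT from 45.8 and 29.6 to 17.0 and 21.8 CPM and was at 15.8 and 14.4 CPM in TG0 and 28.0 and 22.5 in TG7, and its log2 difference was 1.69 (SE 0.31, edgeR FDR = 0.0253). nrg2b, a neuregulin, was at most 1.97 CPM in any library (log2 difference 3.21, SE 0.76, edgeR FDR = 0.0487). Its call was also lost without the filter on low counts, with limma-voom, with the 8 compared libraries alone and with the replicate block. Calls of thy1 and cav1 were also lost with limma-voom and with the block. That of myh11b was also lost with the 8 libraries alone and with the block, and that of ece1 with the block. Of the macrophage receptor marco (log2 difference 2.33, SE 0.64, edgeR FDR = 0.0738), the helicase subunit mcm2 (1.48, SE 0.44, edgeR FDR = 0.093) and the coactivator of mitochondrial genes ppargc1a (1.15, SE 0.32, edgeR FDR = 0.0807), each with the smallest p of its list, none passed.

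Of 36 red blood cell genes, 5 had a higher TG response and 0 a lower one, namely the heme synthesis enzymes hmbsb, cpox and urod, beside blf and si:ch211-5k11.6, which were named after their values were seen. hmbsb was at 21.5 and 22.9 CPM in WT0, 9.56 and 10.8 in WT7, 11.098 and 10.5 in TG0 and 17.0 and 20.8 in TG7. It fell in WT and rose in TG, so that WT0 and TG7 were high and WT7 and TG0 low, and the log2 difference was 1.93 (SE 0.20, edgeR FDR = 0.00335). cpox (log2 difference 0.96, SE 0.20, edgeR FDR = 0.0375) and urod (1.51, SE 0.33, edgeR FDR = 0.0395) belong to the same pathway and fell in WT, and their calls were lost without any library other than WT0 replicate 2. The urod call was also lost with limma-voom, with the 8 compared libraries alone and with the replicate block. alas2, the first enzyme of the pathway and a red blood cell marker, rose in both lines and was not called (log2 difference 0.67, SE 0.27, edgeR FDR = 0.175). In WT 16 members rose and 8 fell, in TG 14 rose and 0 fell. Red blood cell markers, 1 of them the called si:ch211-5k11.6, summed to 2591 and 2183 CPM in WT0, 6079 and 7037 in WT7, 4431 and 7255 in TG0 and 14262 and 16618 in TG7. The part of red blood cell content in the calls was not tested. The list had 10 calls without WT0 replicate 2, 2 without TG0 replicate 2 and 1 without any of the other 6 libraries.

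Transcripts of plasma proteins were higher in TG7 than in the other 3 wild-type groups, and highest of all in a library of injured nkx2.5-/- hearts. Their mean log2 CPM was 1.87 and 1.58 in TG7, -0.27 and 3.47 in MT7 and between -1.85 and -0.96 in the other 8 libraries. Of 31 tested liver and plasma protein genes, 28 were higher in both TG7 libraries than in each of the other 6 (true of 9.49% of all genes tested). Of these 31, edgeR called none, limma-voom 0 and DESeq2 7. At an unadjusted edgeR p below 0.05 there were 12, against 4342 of all 19014 genes tested. With each group mean raised to a floor of 3 counts in each library, only tfa, rbp4 and c3a.1 had negative log2 differences (-1.19, -0.02 and -0.45). While tfa and rbp4 were abundant in every group, c3a.1 was at 0.814 and 2.46 CPM in WT0 and at 2.87 and 2.06 in TG0. Without these genes, the rest of the list summed to 102 and 85.7 CPM in TG7 and to between 2.99 and 16.3 CPM in the other 6 libraries. In WT0, WT7 and TG0, 17, 16 and 18 of the 31 members had at most 3 counts in each library, so that fitted log2 differences depend on the prior count. A member with so few counts in all of these groups could pass the filter on low counts only through TG7 or nkx2.5-/- libraries. Its place above the other 6 libraries can thus be set by the filter, and 9.49% is not a like comparison. The fitted median of the list was 6.001 (2.40 without WT0 replicate 2 and 4.94 to 6.68 without each of the other libraries), and 3.39 with each group mean raised to a floor of 3 counts in each library. apoc1l, an apolipoprotein and the member with the smallest p, was at 2.92 and 6.04 CPM in WT0, 0.971 and 1.06 in WT7, 0.244 and 0.352 in TG0 and 10.5 and 7.77 in TG7, with 1.24 and 38.0 in MT7. Its log2 difference of 7.01 (SE 1.80, edgeR FDR = 0.063) was not called.

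The study also followed 14 genes by quantitative PCR, reported for WT7 against WT0 and not for the TG response. Of these, postnb and col1a2 are described above. None of the other 12 was called for the double difference, and fn1a, vmhc and plk1 among them are described above as well. The gelatinase mmp2 rose by log2 2.83 in WT and 2.06 in TG, with a log2 difference of -0.77 (SE 0.35, edgeR FDR = 0.223), and the membrane proteases mmp14a and mmp14b rose in both lines, with log2 differences of -0.56 (SE 0.48, edgeR FDR = 0.527) and -0.77 (SE 0.26, edgeR FDR = 0.119). The BMP target id2b and the membrane protein popdc2 fell in both lines, with log2 differences of 0.17 (SE 0.31, edgeR FDR = 0.78) and -0.07 (SE 0.22, edgeR FDR = 0.892). cacna1c, a pore subunit of the L-type calcium channel, fell in WT and had a log2 difference of 0.52 (SE 0.27, edgeR FDR = 0.296). For nfkbiaa, pdlim5b and tcap the log2 differences were -0.36, -0.21 and 0.18, with edgeR FDRs of 0.469, 0.683 and 0.919. The standard errors among these 12 genes ran from 0.22 to 0.84, which sets the size of difference that 2 replicates could show.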

How the data were processed

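Ventricular apices were pooled (6 in each library), and total RNA was sequenced as single reads of 100 bases from TruSeq v2 libraries, which do not mark strand. The authors aligned reads with STAR 2.5.2 to GRCz10 (annotation 91) and counted them per gene with featureCounts 1.5.0-p3, and the deposited values are raw counts. Here the counts of all 12 libraries were fitted with edgeR 4.0.16 in R 4.3.3 (quasi-likelihood, TMM, filterByExpr with a minimum count of 10, 6 group means, 6 residual degrees of freedom), and p-values were adjusted by Benjamini-Hochberg over 19014 genes. DESeq2 1.42.0, limma 3.58.1 (voom), RLE factors, no filter, the 8 libraries alone, a replicate block, other fold thresholds and leaving out each library were the alternatives. CPM used TMM-scaled library sizes. Replicates differed beyond counting noise and were counted separately (29.7% to 51.9% of genes at a chi-square p below 0.05). The members and gene lists were chosen with earlier results of these data known, so lists carry no test. Named were the 10 called genes of smallest p in each direction (mean log2 CPM of at least 1, a settled symbol, the same sign in all 16 library combinations), up to 3 called members of each list by smallest p or its top member if none was called, nkx2.5, hsp70l and the 14 genes the study measured by quantitative PCR. The fits were tested on simulated counts. Reads of near-identical gene copies can be split uncertainly. Sequences and genome positions are not used here. The result of 1 named gene is not reported here.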

Additional observations from a re-analysis of the deposited data

Results flagged for a closer look

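The responses to injury of the 2 wild-type lines differed, by the test of the difference itself, in 693 genes, of which 54 fell under the rule for named genes and 53 are given. For each named gene the log2 difference (TG response minus WT response) follows in brackets. Among chaperone and import genes it was positive, in hspd1 (1.82), hspa4a (2.46), hsp90aa1.1 (3.93) and timm10 (1.29). Among genes of the nucleolus and ribosome it was positive in npm1a (1.44), fbl (1.02), heatr1 (1.42) and rpl22l1 (0.91). Amino acid, tRNA and folate genes with a positive value were mthfd2 (1.86), mars (1.23) and sars (0.95), and those of the endoplasmic reticulum were xbp1 (0.92) and hyou1 (1.06), while plod2 (-1.1) had a negative one. Clock genes with a positive value were nr1d2b (2.47), bhlhe40 (2.07) and bhlhe41 (2.78), and genes of the red blood cell list were hmbsb (1.93), cpox (0.96) and urod (1.51). Negative values were found in the autophagy and protein turnover genes fbxo25 (-3.28), calcoco1a (-1.79), bnip3 (-1.78), map1lc3b (-1.20), rnf11a (-1.57) and mkrn1 (-1.72). The isoaspartyl methyltransferase-domain genes pcmtd1 (-2.61), pcmtd1-2 (-2.31) and pcmtd2 (-3.11) also had negative values. Matrix and vessel genes with negative values were postnb (-2.01), col1a2 (-1.05), lum (-2.07), mmp11b (-2.23), edn1 (-3.17) and ece1 (-1.02). Muscle genes with positive values were myh6 (5.33), fhl2b (2.63), flncb (1.18) and myh11b (4.09). Other positive values were those of cyp2n13 (3.60), slc20a1b (1.87), rfx2 (1.53), klf7b (2.36), klf2b (1.69), hk2 (3.08), thy1 (2.47), cav1 (1.41) and nrg2b (3.21). Other negative values were those of rnd1 (-2.99), znf326 (-2.08), gpib (-1.92), cox4i2 (-1.44) and cdkn1a (-1.20).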

How the results depend on the processing

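Of the settings that kept all 12 libraries, the number of genes whose responses differed (693) was 1722 with DESeq2 and 443 with limma-voom, and 696 with the size factors of DESeq2 and 633 without the filter on low counts; it was 681 with the 8 compared libraries alone. With the replicate number as a block it was 338. Similar totals did not mean the same genes. With the 8 libraries alone, 260 of the calls were higher and 421 lower, against 311 and 382. Many of the 693 calls were lost in that setting and others gained, while the sign of the difference held in 689 of them. Part of the 693 calls were also lost without the filter. Replicate numbers do not pair the libraries, since same-numbered deviations from the group means correlated between -0.06 and 0.05. Leaving out a library gave between 31 and 2684 genes. The counts of the single contrasts ran from 1423 to 5437 for WT7 against WT0, from 405 to 2076 for TG7 against TG0, from 1408 to 5047 for TG0 against WT0 and from 3 to 252 for TG7 against WT7 when a library was left out. With DESeq2 they were 2674 for TG7 against TG0 and 702 for TG7 against WT7, and with an absolute log2 fold change above 1 they were 2801 for WT7 against WT0 and 2551 for TG0 against WT0. Their counts with the block were 4076, 1505, 3740 and 161 in the order named. No named gene changed direction past the threshold. Of the 54 called named genes, 10 lost the call with the block, 8 with limma-voom, 4 with the 8 libraries alone, 1 without the filter and 0 with DESeq2. A library left out leaves its group with 1 sample, which is then assumed to vary like the other groups; the causes of these shifts were not tested. Depth limits low genes most: 39 called genes had at most 3 counts in both libraries of a group, so their fold changes depend on the prior count.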
